A study of Mus musculus with 6 samples.

Results

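The genes described here encode the secreted Wnt proteins, their receptors, their antagonists, and the proteins that set how many receptors a cell carries, together with a few intracellular members of the same pathway. They were found by gene name on the array: 97 of the 56605 probes, reading 59 of 37325 genes, matched the names of the Wnt, Frizzled (Fzd), Dickkopf (Dkk), secreted frizzled-related protein (Sfrp and Frzb), R-spondin (Rspo), Lgr, and Kremen genes, of Wif1, Lrp5, Lrp6, Znrf3, Rnf43, Axin1, and Axin2, and of the Lef1 and Tcf7 transcription factors. Dkk2 was selected on its log2 difference between WT and Selenbp1-KO kidneys on these arrays, so that difference is given as a description. The other genes were chosen by name, with earlier results of these data known. Left kidneys came from WT mice of the strain C57BL/6J and from Selenbp1-KO mice, all male, 8 weeks old, and fasted for 20 h, with 3 mice, 1 array each, per genotype. The WT mice were obtained from a supplier, and the methods do not call them littermates of the Selenbp1-KO mice, a line whose generation is described elsewhere. The whole kidney was used, so fewer cells of a type and less RNA per cell cannot be told apart.

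Wnt proteins are secreted ligands that bind a Frizzled receptor together with the co-receptor Lrp5 or Lrp6. Binding stops the destruction of β-catenin, which then acts with Tcf7 and Lef1 family proteins on target genes such as Axin2. Dickkopf proteins bind Lrp5 and Lrp6 with the help of Kremen proteins, Sfrp proteins and Wif1 bind the Wnt ligands, and R-spondins act through Lgr receptors to hold back Znrf3 and Rnf43, which remove Frizzled receptors from the cell surface. In the kidney, Wnt9b and Wnt4 are known for nephron formation and Wnt7b for the growth of the medulla.

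Each value is the log2 signal of a probe minus the log2 of its array's 75th percentile, so that 0 is the level of that percentile, and values are given for WT replicates 2, 3, and 4 and then for Selenbp1-KO replicates 1, 2, and 3. Selenbp1 itself read 7.07, 7.02, and 7.02 in WT kidneys and 4.13, 3.98, and 4.10 in the Selenbp1-KO, which differed by −2.96 (adjusted p = 0.0021 by limma), in the direction of the labels. All 6 arrays were on 1 slide. In the array position that closes each file name, the first number was 1 for WT replicates 2 and 3. It was 2 for WT replicate 4 and the Selenbp1-KO replicates. That number was read as the side of the slide and is called slide side below. Between 51.8% and 55.5% of the spots of an array were well above background, and 57 to 64 of the 97 probes were. Of all 56097 probes tested, 7.98% met the criterion of the methods, an unadjusted p under 0.05, 6.47% with a higher and 1.51% with a lower signal in Selenbp1-KO kidneys. This balance depended on the processing: 3632 probes were higher and 847 lower, but 2527 were higher and 2170 lower with quantile normalization, and 1361 were higher and 2290 lower when slide side was a block. When p was adjusted over all probes (Benjamini–Hochberg), 2 of them passed, those of Selenbp1 and Selenbp2 (0.00357%), and none of the Wnt pathway probes did. "Met the criterion" below therefore refers to the unadjusted p of limma, and the adjusted p is printed where a gene is described in full.

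The DNA upstream of 3 genes of secreted proteins, Dkk2, Rspo1, and Sfrp5, is shown. These genes had a higher signal in every Selenbp1-KO array than in any WT array. The brightest probes of Rspo3 and Sfrp1, also genes of secreted proteins, had the same pattern. No window was found for Rspo3, and Sfrp1 is not shown. Each window holds the 250 bases before the annotated start in the RefSeq annotation of GRCm38.p6, from 5′ to 3′ on the strand of the gene. Capitals mark CTTTGT or CTTTGA, the letters that Tcf and Lef proteins bind, and TATAAA, searched on both strands. CTTTGT and CTTTGA differ in their last letter and cannot match the same bases.
Dkk2, chr3:132085042-132085291, plus strand: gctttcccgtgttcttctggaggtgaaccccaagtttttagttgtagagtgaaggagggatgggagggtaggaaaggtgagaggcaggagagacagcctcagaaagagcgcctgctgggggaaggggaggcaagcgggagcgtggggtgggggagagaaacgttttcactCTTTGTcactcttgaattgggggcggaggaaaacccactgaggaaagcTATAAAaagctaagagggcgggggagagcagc
Rspo1, chr4:124986180-124986429, plus strand: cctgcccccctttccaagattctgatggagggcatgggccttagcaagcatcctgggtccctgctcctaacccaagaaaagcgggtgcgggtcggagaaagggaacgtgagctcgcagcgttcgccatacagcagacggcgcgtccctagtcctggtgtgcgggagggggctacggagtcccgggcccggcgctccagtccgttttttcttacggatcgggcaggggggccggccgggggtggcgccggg
Sfrp5, chr19:42202253-42202502, minus strand: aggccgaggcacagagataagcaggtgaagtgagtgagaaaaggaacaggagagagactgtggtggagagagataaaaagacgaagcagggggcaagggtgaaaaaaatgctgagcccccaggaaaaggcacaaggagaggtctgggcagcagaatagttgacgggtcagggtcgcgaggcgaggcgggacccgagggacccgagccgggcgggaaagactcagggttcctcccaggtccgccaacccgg
The Dkk2 window had CTTTGT from 80 bases and TATAAA from 32 bases before the start, whereas the windows of Rspo1 and Sfrp5 held none of these letters. Windows were found for 39 of the 59 genes, 48 in all. CTTTGA or CTTTGT was in 22.9% of these 48 windows and in 27.6% of the 32851 windows of all genes, and TATAAA was in 16.7% and 12.4%. A match describes the letters only.

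The probes of Dkk2, Rspo1, and Rspo3 are shown by their first 30 of 60 bases, since what an array reads is set by the probe and Rspo3 had a pair of probes with different outcomes. Positions are those of the array files, on mm9.
Dkk2 (NM_020265), chr3:131842357-131842416: tcagagtgatgatgtcatcagaagtttata
Rspo1 (NM_138683), chr4:124686270-124686329: ccgtggtacacgtcacggatgacctgactt
Rspo3 (NM_028351), chr10:29172930-29172989: ggatactactttctaacaaggtgtatctag
Rspo3 (AK076308), chr10:29172236-29172295: cacatgggccacttggcttaaatggttttc
The probe of NM_028351 was well above background on all 6 arrays, whereas that of AK076308 held the software's replacement value for spots at background on all 6. The level of Rspo3 below is therefore that of the first probe.

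Dkk2, a secreted protein that binds Lrp5 and Lrp6, read −1.40, −1.44, and −1.55 in WT kidneys and −0.99, −1.17, and −0.95 in Selenbp1-KO kidneys. The groups did not overlap, all Selenbp1-KO values being the higher, and the spread within a genotype was small (SD 0.08 in WT and 0.12 in Selenbp1-KO kidneys, n = 3 each). The difference, KO minus WT, was 0.43 with a standard error of 0.11, or 1.34-fold. Because these values chose Dkk2, no test is given. The difference stayed between 0.36 and 0.51 under every alternative processing, the higher end being the comparison of the Selenbp1-KO arrays with WT replicate 4, which shared their side of the slide. Dkk2 was not the member with the largest difference, as 2 R-spondins and Sfrp5 differed by more.

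**Figure D1:**
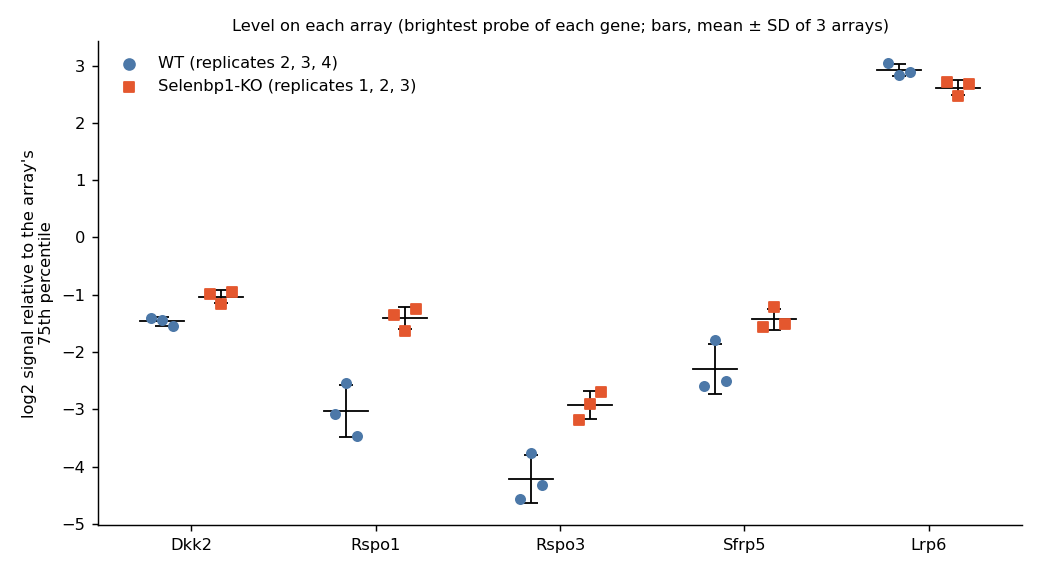
Log2 signal relative to the 75th percentile of the array (vertical axis) for the brightest probe of Dkk2, Rspo1, Rspo3, Sfrp5, and Lrp6, with a point per array and the mean ± SD of 3 arrays. The Selenbp1-KO arrays lie above all WT arrays for Dkk2, Rspo1, Rspo3, and Sfrp5 and below them for Lrp6, and levels of different genes are not comparable because their probes differ.

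Among the members other than Dkk2, 95 probes passed the detection filter and 10 of them (10.5%) met the criterion, against 7.98% of all probes, 9 of them higher and 1 lower than in WT kidneys. When slide side was a block, 7 met it, 4 higher and 3 lower. Groups did not overlap for 14 probes (14.7%), against 13.3% of all probes, with 11 higher (9.22% of all probes) and 3 lower (4.06% of all probes). The median difference of all member probes was 0.08, and that of all probes tested was 0.11. As a family, the Wnt pathway probes were thus close to the array as a whole. After quantile normalization the median of all probes was 0.00 and that of the members 0.0072.

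Signal strength bore on these counts. Of the member probes other than Dkk2, 58 were bright, that is, well above background on all 3 arrays of WT, of Selenbp1-KO, or of both. Of these 58, 6 met the criterion, 5 higher and 1 lower, against 5.65% of all bright probes (3.84% higher and 1.81% lower). Their median difference was 0.02, beside 0.00 for all bright probes. Another 28 tested probes were not well above background on any array, and 4 of these met it, all higher, against 10.8% of such probes on the whole array (9.91% higher). In that range the median difference was 0.37 for the members and 0.38 for all probes. The 10 tested members that held the replacement value on all 6 arrays differed by 0.36 to 0.41, and all 8905 tested probes of the array with that value differed by 0.36 to 0.41 as well. None of them met the criterion. The 75th percentile by which the arrays were scaled was 711 and 751 for WT replicates 2 and 3, on slide side 1. On slide side 2 it was 519 for WT replicate 4 and 566, 477, and 584 for the Selenbp1-KO replicates. Against WT replicate 4 alone, the replacement-value probes of Rspo3 and Lgr6 differed by 0.05 and 0.09.

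**Figure D2:**
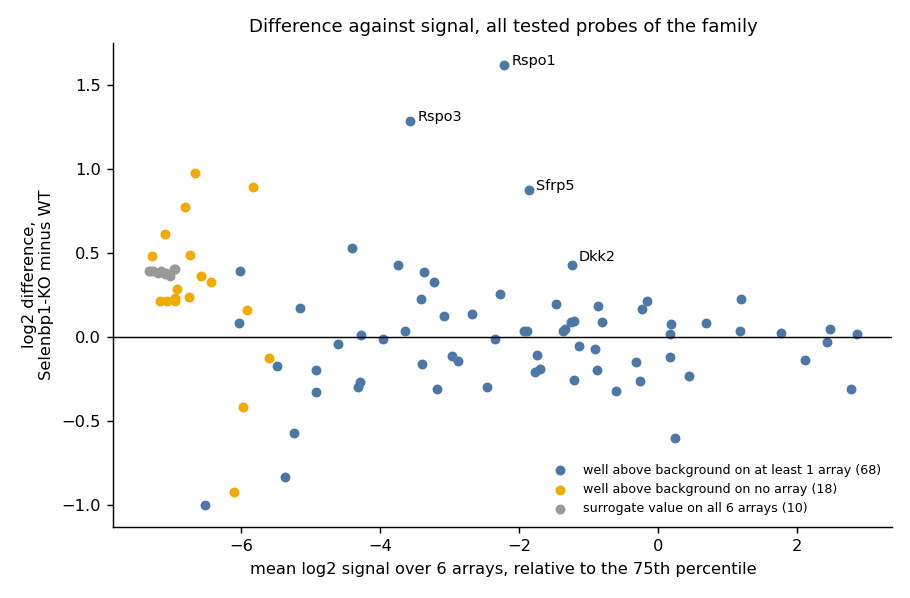
Log2 difference, Selenbp1-KO minus WT, of the 96 tested probes of the family (vertical axis) against their mean log2 signal over 6 arrays (horizontal axis), colored by whether the probe was well above background. Probes with a replacement value on all 6 arrays lie at 0.36 to 0.41, and Rspo1, Rspo3, and Sfrp5 stand above the probes of like signal.

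R-spondin 1, which strengthens the response to Wnt ligands, had the largest difference among the members. Rspo1 read −3.09, −2.55, and −3.46 in WT kidneys and −1.36, −1.62, and −1.25 in Selenbp1-KO kidneys. The lowest Selenbp1-KO array was more than 0.9 log2 units above the highest WT array. The difference was 1.62 (standard error 0.25), or 3.08-fold, and it met the criterion, with an adjusted p of 0.279 by limma. It met the criterion in 19 of 19 alternatives, with differences from 1.09 to 2.05, and the adjusted p over these ranged from 0.000106 to 0.543. Against WT replicate 4 alone, on the same side of the slide, the difference was 2.05.

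R-spondin 3 acts in the same way. Rspo3 read −4.57, −3.75, and −4.32 in WT kidneys and −3.19, −2.90, and −2.70 in Selenbp1-KO kidneys, again without overlap. The difference was 1.29 (standard error 0.24), or 2.44-fold, and it met the criterion, with an adjusted p of 0.279 by limma and a range of 0.0027 to 0.543 over the alternatives. It met the criterion in 19 of 19 alternatives, although the difference was 0.68 with normexp background correction. The other R-spondins, Rspo2 and Rspo4, had 4 probes, none of them well above background on any array.

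Lgr4, the bright one of the receptors of R-spondins, read 2.16, 2.32, and 2.07 in WT kidneys and 1.95, 1.90, and 2.28 in Selenbp1-KO kidneys. Its groups overlapped, and the difference of −0.14 (standard error 0.15) did not meet the criterion. Lgr5, known as a mark of epithelial stem cells, was well above background on 1 array in all, WT replicate 3, with its brighter probe. The dimmer Lgr5 probe and the brighter Lgr6 probe met the criterion with higher values in Selenbp1-KO kidneys, but neither was well above background anywhere, so no fold is given, and both calls were lost with quantile normalization and when slide side was a block. The Lgr6 values overlapped, from −7.36 to −6.84 in WT and from −6.90 to −5.64 in Selenbp1-KO kidneys.

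Rnf43 and Znrf3, the ubiquitin ligases that R-spondins hold back, were measured on all arrays. The brighter Rnf43 probe read −0.10, −0.16, and −0.16 in WT kidneys and −0.49, −0.12, and −0.59 in Selenbp1-KO kidneys. The groups overlapped through Selenbp1-KO replicate 2, and the difference was −0.26 (standard error 0.15), which met the criterion without that replicate (−0.40). The brightest Znrf3 probe differed by −0.06 (standard error 0.14), and the others by −0.19 and 0.12. In this group, 4 of 19 probes met the criterion, all higher, against 6.47% of all probes, and those of Lgr5 and Lgr6 among them were not well above background. The median difference was 0.36, but it was 0.00 after quantile normalization, and the 8 probes well above background had a median of −0.10.

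The antagonists had the most uniform sign. Of 18 tested probes other than Dkk2, 16 had a positive difference, 18 with normexp correction, and 15 with quantile normalization, and their median was 0.20 (0.16 after quantile normalization). Of the 14 bright ones, 12 were positive, against 14493 of all 28513 bright probes. Over the whole array, 21037 of the 24333 tested probes that were nowhere well above background were positive. Groups did not overlap for 6 of the 18, all higher in Selenbp1-KO kidneys, against 9.22% of all probes, and 3 met the criterion, all higher, against 6.47% of all probes. No test of the group was made.

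Sfrp5, a secreted protein that binds Wnt ligands, read −2.59, −1.80, and −2.51 in WT kidneys and −1.56, −1.22, and −1.51 in Selenbp1-KO kidneys. WT replicate 3 was close to the Selenbp1-KO arrays and the other WT arrays were well below them. The difference was 0.87 (standard error 0.24), or 1.83-fold, with an adjusted p of 0.279 by limma and a range of 0.0377 to 0.642. It met the criterion in 18 of 19 alternatives and missed it with the replicate number as a block (0.83). Sfrp1, a relative of Sfrp5, read −0.33, −0.19, and −0.29 against 0.08, −0.19, and −0.06. These groups did not overlap, but WT replicate 3 and Selenbp1-KO replicate 2 were almost equal, and the difference of 0.21 (standard error 0.12) did not meet the criterion. Sfrp4 spread from −3.70 to −2.33 within Selenbp1-KO kidneys, and its difference of 0.33 had a standard error of 0.38. Sfrp2, Frzb, and Wif1, which all bind Wnt ligands, differed by 0.14, 0.16, and 0.23, with overlapping groups on their brightest probes and none meeting the criterion.

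No tested probe of the other Dickkopf genes met the criterion in the comparison as reported. Dkk3, a relative whose role in Wnt signaling is less clear, read 1.02, 0.97, and 1.25 in WT kidneys and 1.15, 1.39, and 1.36 in Selenbp1-KO kidneys. Selenbp1-KO replicate 1 fell within the WT range, and the difference of 0.23 (standard error 0.13) did not meet the criterion, except without WT replicate 4 (0.31) and with limma's trend and robust options. A second Dkk3 probe had groups that did not overlap and a difference of 0.19. Dkk1, a strong inhibitor of Wnt signaling, and Dkk4 were not well above background on any array. Dkkl1, a Dickkopf-like protein, read between −1.68 and −0.83 in WT and between −1.46 and −0.94 in Selenbp1-KO kidneys, with a difference of 0.09 (standard error 0.25) whose sign turned when WT replicate 4 (−0.10) or Selenbp1-KO replicate 1 (−0.05) was left out.

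Kremen proteins take Lrp6 from the cell surface together with Dickkopf proteins. The brightest Kremen1 probe read 1.13, 1.23, and 1.12 in WT kidneys and 1.20, 1.15, and 1.23 in Selenbp1-KO kidneys, with a difference of 0.03 (standard error 0.10). A dim Kremen1 probe, well above background on 2 WT and 3 Selenbp1-KO arrays, had a difference of 0.53 and met the criterion, though not without Selenbp1-KO replicate 2 (0.34), WT replicate 3 (0.51), or WT replicate 4 (0.45), nor when slide side was a block (0.68). The remaining Kremen1 probes differed by −0.02 and −0.04 and did not meet the criterion. The probes of Kremen1 thus did not have the same outcome, and the brightest had the smallest standard error. Kremen2 read −6.24, −6.40, and −6.21 against −5.50, −5.01, and −5.66. These values did not overlap and met the criterion, but none was well above background, so no fold is given, and the call was lost with normexp correction (0.25) and with limma's trend and robust options.

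**Figure D3:**
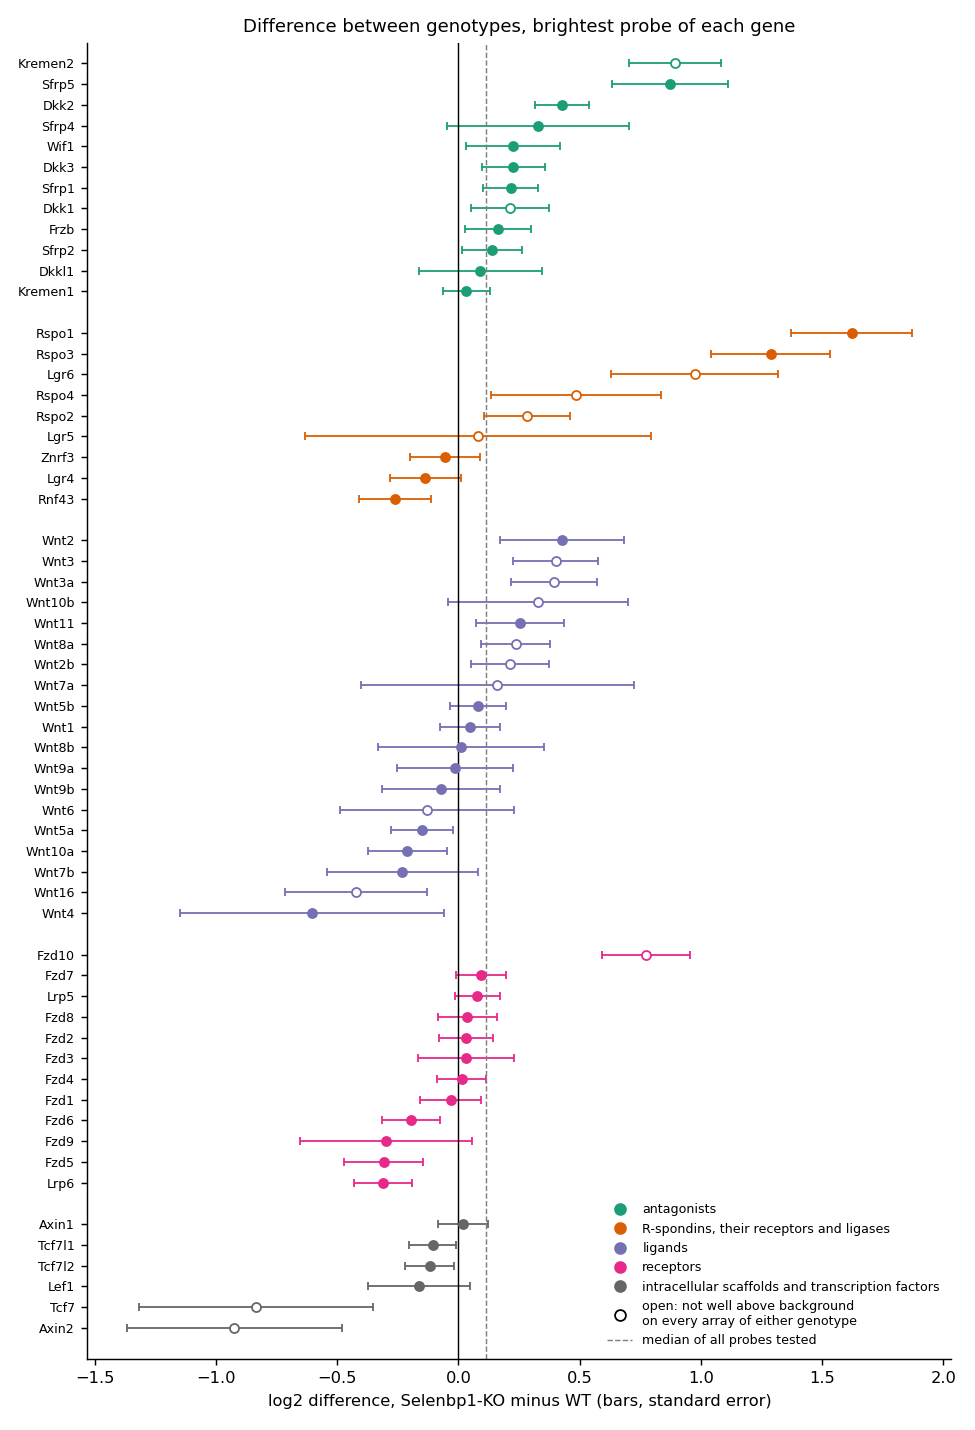
Log2 difference, Selenbp1-KO minus WT (horizontal axis), with its standard error, for the brightest probe of 58 genes, colored by role. Open circles were not well above background on all 3 arrays of WT or of Selenbp1-KO, and the dashed line is the median of all probes tested, 0.11. Dkk4 is not drawn because its brightest probe did not pass the detection filter, and Rspo1 and Rspo3 lie farthest to the right.

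Among the receptors, Lrp6, the co-receptor to which Dkk2 binds, was lower in Selenbp1-KO kidneys. Its brightest probe (NM_008514, chromosome 6 of mm9, 134400440 to 134400499) read 3.04, 2.84, and 2.90 in WT kidneys and 2.71, 2.46, and 2.67 in Selenbp1-KO kidneys, and the groups did not overlap. The difference was −0.31 (standard error 0.12), with an adjusted p of 0.279 by limma and a range of 0.0905 to 0.917. A second Lrp6 probe read −0.41, −0.37, and −0.57 against −0.63, −1.04, and −0.65, a difference of −0.32 that did not meet the criterion, also without overlap. The difference of the brightest probe kept its sign in 19 of 19 alternatives, from −0.37 to −0.24, but met the criterion in 10 of them. It missed the criterion whichever of the 6 arrays was left out.

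Of the other receptors, 1 met the criterion, Fzd10. Lrp5, the other co-receptor, differed by 0.08 (standard error 0.09). Fzd4, the receptor with a known role in blood vessels, read between 2.84 and 2.87 in WT and between 2.76 and 2.95 in Selenbp1-KO kidneys and differed by 0.01. Fzd1, Fzd2, Fzd3, Fzd7, and Fzd8 differed by −0.03 to 0.09 on their brightest probes. Fzd5 read −3.02, −3.06, and −3.00 against −3.03, −3.60, and −3.38, a difference of −0.31 (standard error 0.16), close to that of Lrp6, that met the criterion only without Selenbp1-KO replicate 1 (−0.46). A dimmer Fzd5 probe, well above background on 2 WT arrays, differed by −0.57 (standard error 0.46). Fzd6 differed by −0.20 and Fzd9 by −0.30, with overlap, and Fzd9 met the criterion without Selenbp1-KO replicate 2 (−0.70) and had a difference of 0.07 with normexp correction. Fzd10 met the criterion with higher values (0.77), but it was at no point well above background, and the call was lost with normexp correction (0.24), quantile normalization (0.50), the authors' values (0.50), and slide side as a block (0.50). Of the 17 receptor probes, 2 met the criterion, 1 in each direction, against 7.98% of all probes, and their median difference was −0.03.

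Of 26 ligand probes, 1 met the criterion, a probe of Wnt11, against 7.98% of all probes. Wnt11, a ligand of branching ureteric buds, had a brighter probe (NM_009519) that read −2.65, −2.08, and −2.49 against −2.0, −2.31, and −2.15, with overlap and a difference of 0.25 (standard error 0.18) that met the criterion without WT replicate 3 (0.42). The dimmer probe (NM_001285792) read −3.61, −3.60, and −3.50 against −3.23, −3.24, and −3.07. Its arrays did not overlap, and the difference was 0.39 (standard error 0.11), with an adjusted p of 0.279 by limma and a range of 0.049 to 0.814. It met the criterion in 16 of 18 alternatives and missed it when slide side was a block (0.31) and with limma's trend and robust options. Both probes had a positive difference, and whether they read different transcripts was not tested.

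Wnt4 had the widest spread among the bright ligands, and the spread was within the genotypes. It read 0.70, −0.06, and 0.98 in WT kidneys and −0.69, 1.1, and −0.60 in Selenbp1-KO kidneys. The difference of −0.60 had a standard error of 0.54, and without Selenbp1-KO replicate 2 it was −1.19 and met the criterion. Wnt7b and Wnt9b, which like Wnt4 are known from the tubular epithelium, had their 3 highest values on the same arrays as Wnt4, WT replicates 2 and 4 and Selenbp1-KO replicate 2, and were chosen for description after their values were seen. The brighter Wnt7b probe read 0.82, 0.13, and 0.70 against 0.05, 0.92, and −0.01, and Wnt9b read −0.92, −1.08, and −0.62 against −1.32, −0.49, and −1.02. Neither met the criterion, with differences of −0.23 and −0.07. Of the 56 member probes well above background on all arrays, 9 had these 3 arrays as their highest, those of Wnt4, Wnt7b, and Wnt9b among them. For another 8, the 3 highest were the Selenbp1-KO arrays. The share of either pattern among all probes of the array was not counted. The summed linear signal of 7 collecting duct principal cell markers, relative to the 75th percentile, was 89.4, 80.4, and 87.1 in WT and 82.2, 81.6, and 81.1 in Selenbp1-KO kidneys. Aqp2, 1 of the 7, read 4.69, 4.19, and 3.99 against 3.79, 4.31, and 4.00. The summed markers of smooth muscle were 11.4, 11.6, and 14.0 in WT and 12.3, 16.1, and 12.2 in Selenbp1-KO kidneys. Those of urothelium were 14.7, 15.6, and 12.5 against 19.6, 37.3, and 12.7. Selenbp1-KO replicate 2 was the highest array in both sums. However, WT replicate 2 was the lowest for smooth muscle and WT replicate 4 the lowest for urothelium. The part of these cells in the pattern was not tested.

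**Figure D4:**
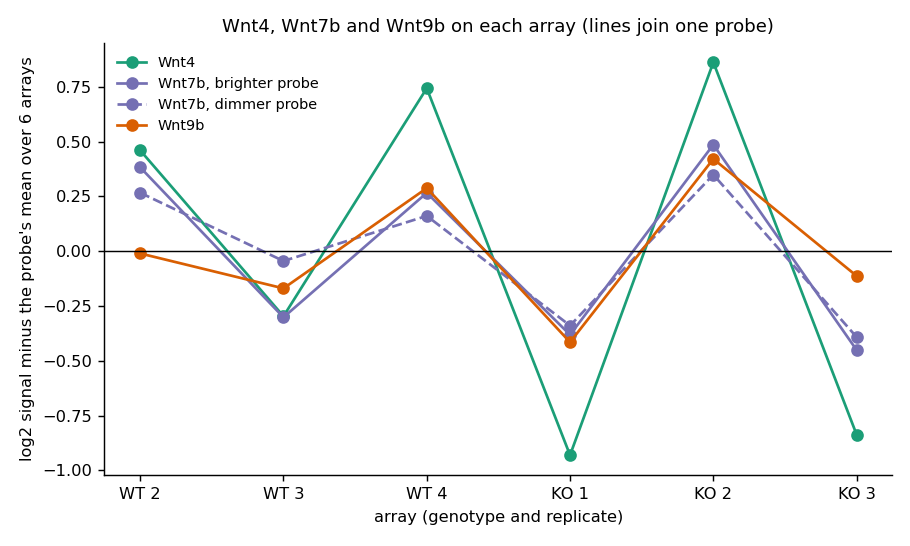
Log2 signal of Wnt4, both Wnt7b probes, and Wnt9b on each of the 6 arrays, minus the mean of that probe over the arrays (vertical axis). WT replicates 2 and 4 and Selenbp1-KO replicate 2 hold the 3 highest values of every line, so the arrays differ within both genotypes.

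The other ligands that could be measured did not meet the criterion. Wnt2 differed by 0.43 (standard error 0.25), with overlap, and met it without WT replicate 2 (0.67). The brightest probes of Wnt5a, Wnt5b, Wnt1, Wnt8b, Wnt9a, and Wnt10a differed by −0.15, 0.08, 0.05, 0.01, −0.01, and −0.21. Wnt2b, Wnt3, Wnt3a, Wnt6, Wnt7a, Wnt8a, Wnt10b, and Wnt16 were not well above background on any array with their brightest probes. A further Wnt10b probe read −3.37 in WT replicate 2 and between −7.62 and −6.86 elsewhere, so that 1 array alone carried its signal.

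Of the 15 probes of Axin1, Axin2, Lef1, and the Tcf7 genes, none met the criterion, against 7.98% of all probes. The brightest Axin1 probe, a scaffold of β-catenin destruction, differed by 0.02 (standard error 0.10). Axin2, which is both a scaffold and a common target of β-catenin, was not well above background on any array with either probe. Tcf7l1 had groups that did not overlap, with −1.71, −1.71, and −1.67 in WT and −1.77, −1.73, and −1.90 in Selenbp1-KO kidneys, and a difference of −0.11 (standard error 0.10) that met the criterion with quantile normalization (−0.12). Tcf7l2, read by 4 probes, differed by −0.27 to −0.12, with overlap on all. Lef1 differed by −0.16 (standard error 0.21).

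With several probes for 28 of the 59 genes, the outcome could depend on the probe. For 13 genes more than 1 probe was well above background, and in 10 of these all such probes had differences of 1 sign. The genes whose probes differed in whether they met the criterion were 6: Lgr5, Lgr6, Rspo3, Kremen1, Wnt11, and Lrp6. With the brightest probe alone, 7 of 57 genes other than Dkk2 met it, 6 higher and 1 lower, against 8% of all genes (6.87% higher and 1.14% lower).

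Other genes of the pathway were taken from 4 lists by function, drawn up with earlier results of these data known. They were 80 genes in all, with 1 probe each. Of these, 3 met the criterion, all higher, against 8% of all genes, and their median difference was −0.01. Gpc3, a cell surface proteoglycan that binds Wnt ligands, differed by 0.46 (standard error 0.14), Dvl3, which carries the signal from Frizzled into the cell, by 0.57 (standard error 0.17), and Ptk7, a receptor-like protein of the planar cell polarity branch, by 0.47 (standard error 0.14), each with an adjusted p of 0.279 by limma. Their groups did not overlap. When slide side was a block, none of the 3 met it, at 0.37 for Gpc3, 0.29 for Dvl3, and 0.38 for Ptk7. Gpc3 (0.50) and Ptk7 (0.44) also missed it with the replicate number as a block, and Dvl3 with the mean of its probes (0.33). Leaving out 1 array ended the call for Gpc3 without Selenbp1-KO replicate 2 (0.43) and for Dvl3 without WT replicate 2 (0.47) or Selenbp1-KO replicate 3 (0.48). None of the 20 β-catenin target genes met the criterion, with Ccnd1, a cyclin, at 0.01 (standard error 0.13) and Myc at −0.13 (standard error 0.17). Ctnnb1, the gene of β-catenin, differed by −0.10 (standard error 0.10). The number of these 80 genes that met the criterion moved with the processing, from 1 to 10, and so did their direction. With normexp correction 7 were higher and 1 lower, and with median scaling all 5 were higher. With quantile normalization 4 were higher and 5 lower, and with the authors' values 4 were higher and 6 lower. Among bright probes only, 3 were higher and 3 lower, and with slide side as a block the 1 gene was lower.

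Markers of some other cells were higher beside Rspo1, Rspo3, Sfrp5, and Dkk2. The marker lists were chosen with earlier results of these data known. Of all genes, with 1 probe each, 8% met the criterion, 6.87% higher and 1.14% lower. Of 8 markers of connective tissue fibroblasts, 6 met the criterion, all higher in Selenbp1-KO kidneys, among them Pi16 (1.20), Dpt (1.08), Lum (0.85), Dcn (0.83), and Col3a1 (0.73), whereas Pdgfra differed by 0.07. Their summed linear signal was 22.4, 27.0, and 20.5 in WT and 33.9, 44.4, and 35.8 in Selenbp1-KO kidneys, without overlap. The highest WT array was replicate 3 for this sum, Rspo1, Rspo3, and Sfrp5, but replicate 2 for Dkk2. The highest Selenbp1-KO array was replicate 2 for this sum and Sfrp5, but replicate 3 for Rspo1, Rspo3, and Dkk2. Of 3 mesothelium markers on the array, Lrrn4 met the criterion but was not well above background on any array, Msln differed by 0.51 with overlap, and the summed signal was 1.17 to 1.64 in WT and 1.46 to 2.23 in Selenbp1-KO kidneys. All 5 macrophage markers had a positive difference, and 3 of them met the criterion. The sum of the 5 was 9.85 to 11.5 in WT and 11.7 to 12.7 in Selenbp1-KO kidneys. The 5 fat markers summed to 12.4 to 47.6 in WT and 21.6 to 118.6 in Selenbp1-KO kidneys, with none meeting the criterion. The part of these cells in the differences of Rspo1, Rspo3, Sfrp5, and Dkk2 was not tested. Of the 6 proximal tubule, 4 endothelial, 5 smooth muscle, 5 urothelial, and 7 collecting duct markers, none met the criterion, nor did any of 5 adrenal cortex markers, 3 of which were nowhere well above background. Of 4 podocyte and 6 T cell markers, 1 each met it, higher in Selenbp1-KO kidneys.

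**Figure D5:**
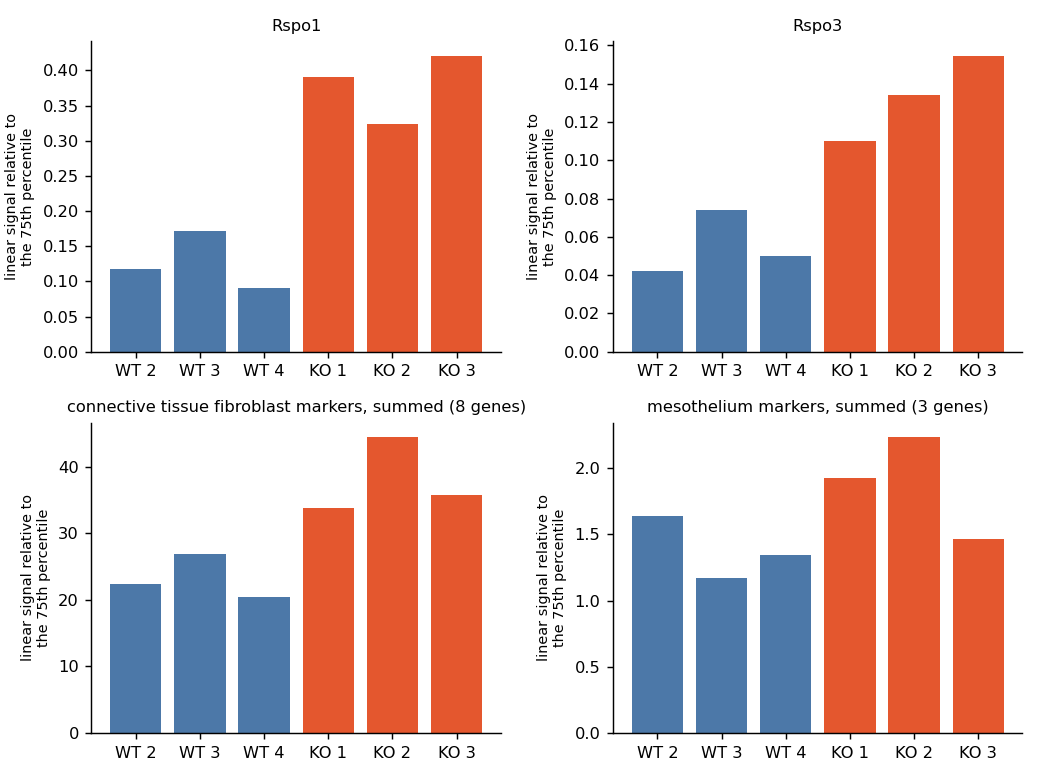
Linear signal relative to the 75th percentile of the array (vertical axes, from 0) of Rspo1 and Rspo3 and of the summed markers of connective tissue fibroblasts and mesothelium, with a bar per array. The fibroblast sum is 20.5 to 27.0 in the WT arrays and 33.9 to 44.4 in the Selenbp1-KO arrays, and Selenbp1-KO replicate 2 is highest in both marker sums but not in Rspo1 or Rspo3.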

How the data were processed

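RNA of 6 kidneys was measured on 6 single-color Agilent arrays. The authors deposited the Feature Extraction output of each array (version 10.7.1.1 in the file headers, 9.5.1.1 in the submitters' processing notes). Its intensities are linear, background-subtracted, and not scaled between arrays. The deposited detection p-values, computed by the software, compare each spot with its background in a two-sided test. The deposited value table holds 1 quantile normalized intensity per probe and was used as an alternative. The authors' processing gives no counts, so the number of arrays limits the precision, and the smallest exact permutation p of 3 against 3 arrays is 0.1.

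Spots marked as outliers were left out, spots of a probe were averaged, and the log2 75th percentile of each array was subtracted from its log2 processed signals. The 56097 probes detected on 1 array or more (p under 0.05) were compared with limma 3.58.1 in R 4.3.3 (lmFit and eBayes, two-sided), with the unadjusted p under 0.05 of the methods and Benjamini–Hochberg adjustment over all probes beside it. A gene is shown by its brightest probe over the 6 arrays. Accessions were matched to RefSeq (GRCm38.p6) for 81 of the 97 member probes. The procedure was tested on simulated data. The methods describe the 6 samples as 3 WT and 3 Selenbp1-KO mice.

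The members and lists were chosen with earlier results of these data known. Genes named are Dkk and Kremen genes, members whose brightest probe met the criterion or did not overlap and was bright (well above background throughout a genotype), the 2 next largest bright differences per role, members whose probes differ in call, and pathway list genes that met the criterion. Alternatives were normexp correction (offset 50), quantile and median scaling, the value table, other filters, outlier spots kept, limma trend and robust options (statmod 1.5.0), the methods' t-test procedure, slide side, replicate number, each array left out, and the mean of probes. The study's other assays were not analyzed here.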

Additional observations from a re-analysis of the deposited data

How the results depend on the processing

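Signal over background and 3 arrays per genotype limit these results, and none of the member probes passed the adjusted threshold in the comparison as reported. The difference of Dkk2 moved by less than the spread between arrays in all alternatives run. Rspo1 and Rspo3 met the criterion in every alternative, and leaving out single arrays ended calls of Lrp6, Kremen1, Lgr5, Lgr6, Gpc3, and Dvl3. Scan date as a block was not run, because all arrays share 1 scan.

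With the replicate number as a block, WT replicate 4 and Selenbp1-KO replicate 1 have numbers that the other genotype lacks. The difference then rests on replicates 2 and 3 of each genotype alone. The number of member probes that met the criterion, 10 in the comparison as reported, was 20 with median scaling and 24 with the replicate number as a block, and it ranged from 8 to 22 with 1 array left out (22 without WT replicate 4). With slide side as a block it was 7 (4 higher and 3 lower). The number of member genes, 7, was 4 with probes well above background only, and 6 to 10 with 1 array left out. The median difference of the members, 0.08, was 0.16 with normexp correction and 0.0072 with quantile normalization or the authors' values, and 0.049 to 0.096 with 1 array left out. The number of pathway list genes, 3, was 8 with normexp correction, 9 with quantile normalization, 5 with median scaling, 10 with the authors' values, 6 with probes well above background only, 7 with trend and robust options or the methods' t-test procedure, 1 with slide side as a block, 6 with the replicate block, and 2 to 7 with 1 array left out. The number of all probes, 4479, was 14616 with median scaling, 2841 with probes well above background only, 7536 with trend and robust options, 18430 with the replicate block, 3651 with slide side as a block (1361 higher and 2290 lower), and 2024 to 17585 with 1 array left out. The cause of these changes was not tested.

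Signs reversed for differences that did not meet the criterion: Dkk1 (−0.15 with quantile normalization and −0.15 with the authors' values), Fzd9 (0.070 with normexp correction), Lef1 (0.045 with normexp correction and 0.23 with the mean of probes), Rnf43 (0.064 with the mean of probes), Dkkl1 (−0.24 with the replicate block), and the brighter Lgr5 probe (−0.076 with quantile normalization and −0.076 with the authors' values, −0.14 with slide side as a block, −0.033 with the replicate block). With 1 array left out, the difference was −0.097 (WT replicate 4) to 0.33 (WT replicate 3) for Dkkl1, −0.33 (Selenbp1-KO replicate 1) to 0.014 (Selenbp1-KO replicate 3) for Lef1, −0.58 (WT replicate 2) to 0.64 (WT replicate 3) for Lgr5, and −0.040 (Selenbp1-KO replicate 2) to 0.64 (Selenbp1-KO replicate 3) for Sfrp4.

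Replicate numbers 2 and 3 occur in both genotypes. Deviations from the group means correlated at 0.171 for number 2 and 0.187 for number 3 across bright probes. Pairs of unlike number ran from −0.326 (WT replicate 3 with Selenbp1-KO replicate 2) to 0.186 (WT replicate 3 with Selenbp1-KO replicate 1). Deviations from a mean of 3 arrays depend on one another, so these values cannot decide whether like numbers were paired.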
